A study of Arabidopsis thaliana with 4 samples.

Results

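The genes described here are 4 Arabidopsis thaliana genes for enzymes that act on cell wall polysaccharides: TBL45 (AT2G30010), GH9B13 (AT4G02290), AT4G24780 and AT2G05790. They were chosen by their array signal, which was lower with bleomycin in these data, so that difference is given below as a description and was not tested. They are 4 of 13350 genes named on the array, each read by 1 probe set, a group of short oligonucleotide probes for one transcript, and all 4 lay above the intensity floor on all 4 arrays.

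Plant cell walls hold cellulose fibres in a matrix of hemicelluloses and pectins, and growing tissue remodels this matrix while it expands. Trichome birefringence-like proteins, the family of TBL45, include enzymes that add acetyl groups to wall polysaccharides. Glycosyl hydrolase 9 enzymes such as GH9B13 cut glucan chains of the cellulose type, pectate lyases such as AT4G24780 cut de-esterified pectin, and glycosyl hydrolase 17 enzymes such as AT2G05790 cut glucans of the callose type.

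The series concerns DNA break repair in plants that lack an end joining protein, and measured whole plants in 4 groups of 1 ATH1 array each. The groups were ku80 with bleomycin, ku80 untreated, wild type (WT) with bleomycin and WT untreated, all in the Ws-2 background. The ku80 line carries a T-DNA insertion in AT1G48050, the gene of the Ku80 subunit that binds broken DNA ends, and bleomycin is a drug that breaks DNA strands. Treated plants had it at 1 mg per litre over 3 days. No treatment is recorded for the untreated arrays. All plants were at growth stage 1.06, on MS medium at 23 °C with 16 hours of light, and each array held RNA pooled from 20 plants. A pool averages over plants and gives no spread between pools, and no group was replicated, so differences between single arrays have no replicate check. The number of probe sets paired with AT1G48050 was 0, so no transcript level checks the genotype labels.

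Values are scaled intensities on a linear scale, and a floor at intensity 28.0 replaced lower values before log2 was taken. Levels of different probe sets cannot be compared with each other, so only differences between arrays are set side by side. In a pool of whole plants, fewer cells of a type and less RNA per cell cannot be told apart. Of the 5 measured green tissue markers, all lay above the floor on all 4 arrays. The root markers EXPA7 and EXPA18, both expansins of root hairs, lay above it on 1 array each, and few root markers were named, so the root share of the pools was not established.

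TBL45, the acetylation family member, read 51.5 in ku80 with bleomycin against 320.0 in ku80 untreated. In WT it read 60.5 with bleomycin against 405 untreated. Both treated arrays were low and both untreated arrays were high, the trait for which the gene was chosen. The differences were 6.21-fold lower in ku80 and 6.69-fold lower in WT, the most even pair among the 4 genes.

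AT2G05790, the glycosyl hydrolase 17 gene, read 129 in ku80 with bleomycin against 599 in ku80 untreated. The WT arrays gave 143 with bleomycin against 769 untreated. Again the arrays followed treatment, by which the gene was chosen, and the genotypes lay close together within each treatment. The gene was 4.63-fold lower with the drug in ku80 and 5.38-fold lower in WT. Its lowest value was 4.62 times the floor, so neither difference was limited by it.

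GH9B13, the glycosyl hydrolase 9 gene, read 28.0 in ku80 with bleomycin against 103 in ku80 untreated, and 32.6 in WT with bleomycin against 191 in WT untreated. The treated arrays were again the low ones, and the untreated ku80 array lay between them and the untreated WT array. The gene was 3.68-fold lower with the drug in ku80 and 5.87-fold lower in WT. Both treated values were at or just above the floor (1.00 and 1.16 times it), so the sizes depend on how well such dim signals are measured. With the floor at the 50th percentile, the log2 difference was -1.27 or lower in ku80 and -2.16 or lower in WT.

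AT4G24780, the pectate lyase gene, read 52.6 in ku80 with bleomycin against 185 in ku80 untreated. It read 29.7 in WT with bleomycin against 423 in WT untreated. WT thus held both the lowest and the highest of the 4 values, with both ku80 arrays between them. The gene was 3.52-fold lower in ku80 and 14.3-fold lower in WT. That WT difference, of the kind used to choose the gene, was the lowest among the 11870 probe sets above the floor on each of the 4 arrays. The treated WT value was 1.06 times the floor, and a higher floor (the 50th percentile) left a log2 difference of -3.31 or lower.

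**Figure D1:**
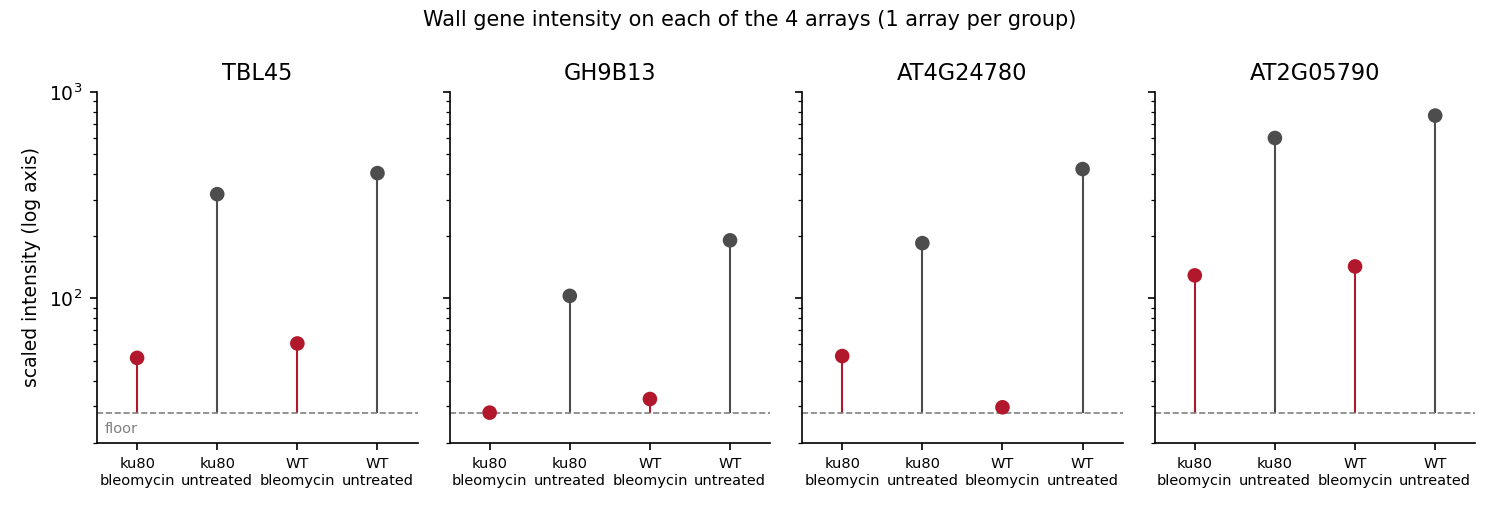
Scaled intensity (log axis) of TBL45, GH9B13, AT4G24780 and AT2G05790 on each of the 4 arrays, with bleomycin in red and untreated in grey and the floor dashed; each point is 1 array. In every panel both treated arrays lie below both untreated arrays, the trait for which the genes were chosen. GH9B13 and AT4G24780 come close to the floor.

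With bleomycin, all 4 genes were at least 2-fold lower in both genotypes, and they had been chosen as lower with the drug. Among all measured probe sets, 5.60% were at least 2-fold lower in ku80, 8.37% in WT and 2.44% in both. The log2 differences of the 4 genes ran from -2.63 to -1.82 in ku80 (median -2.04) and from -3.83 to -2.43 in WT (median -2.65), with a median of 0.00 over all measured probe sets in each genotype. The log2 response was less negative in ku80 than in WT for each of the 4 genes, by 0.11 for TBL45, 0.22 for AT2G05790, 0.67 for GH9B13 and 2.02 for AT4G24780. Over all measured probe sets, 5.41% had a difference of responses of 1 or more in this direction and 5.37% in the other. These shares cover all probe sets, not only lowered ones, and 2-fold lower probe sets were more common in WT (8.37%) than in ku80 (5.60%). A test of this difference was not possible with single arrays.

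**Figure D2:**
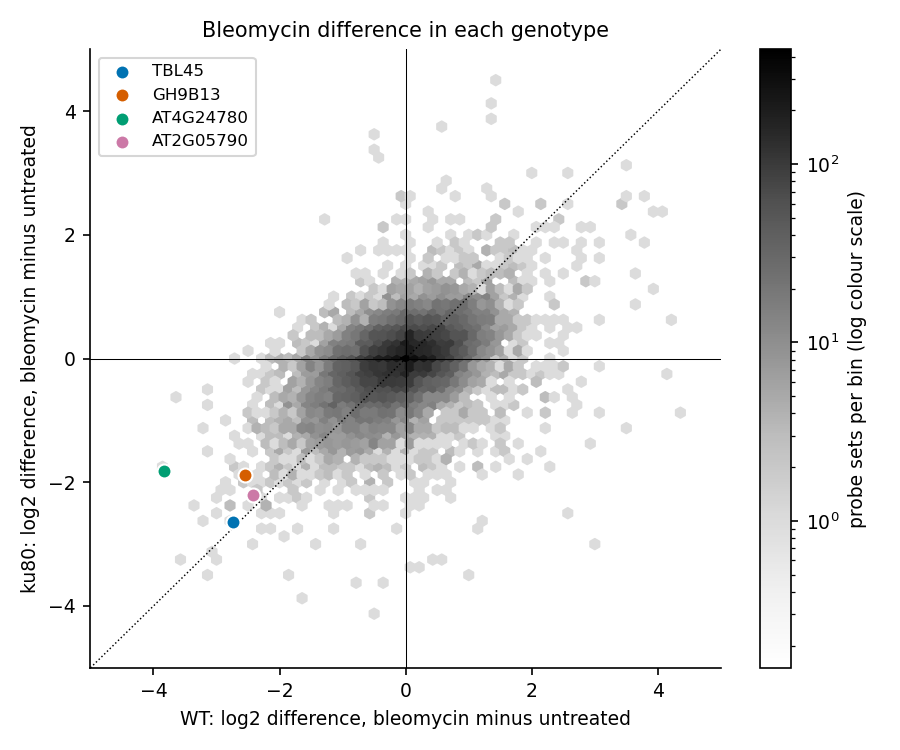
Log2 difference with bleomycin in WT (horizontal) and in ku80 (vertical) for 15336 measured probe sets, shaded by number per bin, with the 4 wall genes as coloured points and equal responses dotted. TBL45 lies near the dotted line, and AT4G24780 lies far to its left at -3.83 in WT and -1.82 in ku80.

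Genotype was not used to choose these genes, but the arrays compared here also enter the bleomycin differences by which they were chosen. Each of the 4 was highest on the untreated WT array, which such a choice favours. The direction of the untreated genotype differences is therefore a description and not independent of the choice. Without bleomycin each of the 4 read lower in ku80 than in WT: the log2 differences were -1.19 for AT4G24780, -0.89 for GH9B13, -0.36 for AT2G05790 and -0.34 for TBL45. One of them, AT4G24780, was at least 2-fold lower in ku80, against 2.09% of all measured probe sets. With arrays scaled to spike-in controls all 4 were at least 2-fold lower in untreated ku80 (-1.90 to -1.04), where the median of all measured probe sets was -0.66. Such differences were common under that scaling. Without bleomycin, 3396 of 15759 measured probe sets were 2-fold different between genotypes in either direction, against 708 of 15336 in the main setting. With bleomycin TBL45, GH9B13 and AT2G05790 were at -0.23, -0.22 and -0.14, and AT4G24780 was 1.77-fold higher in ku80 (0.82). None was 2-fold different under the drug, where 2.35% of measured probe sets were 2-fold lower and 1.85% 2-fold higher. Under that scaling TBL45 and AT2G05790 turned to 0.17 and 0.26 with the drug, and GH9B13 to 0.13 or higher, so their small differences have no settled direction.

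An additive linear model in limma, with genotype and bleomycin over all 4 arrays, called none of the 4 genes for genotype. The fitted difference, ku80 minus WT, was -0.56 for GH9B13 (SE 0.34, 95% interval -1.28 to 0.17, adjusted p = 0.896 in limma). It was -0.29 for TBL45 (SE 0.29, interval -0.89 to 0.32), -0.25 for AT2G05790 (SE 0.27, interval -0.83 to 0.32) and -0.18 for AT4G24780 (SE 0.40, interval -1.02 to 0.65), each at an adjusted p of 1.00 in limma. For AT4G24780 this averages 2 differences of opposite sign and describes neither. The fit called 0.248% of measured probe sets for genotype, 38 in all, with 1062 at an unadjusted p under 0.05. Its 1 residual degree of freedom is the difference of the responses. The p-values thus rest on such differences, mostly borrowed from other probe sets, and not on a spread between replicate pools. How much of these differences is technical was not tested.

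**Figure D3:**
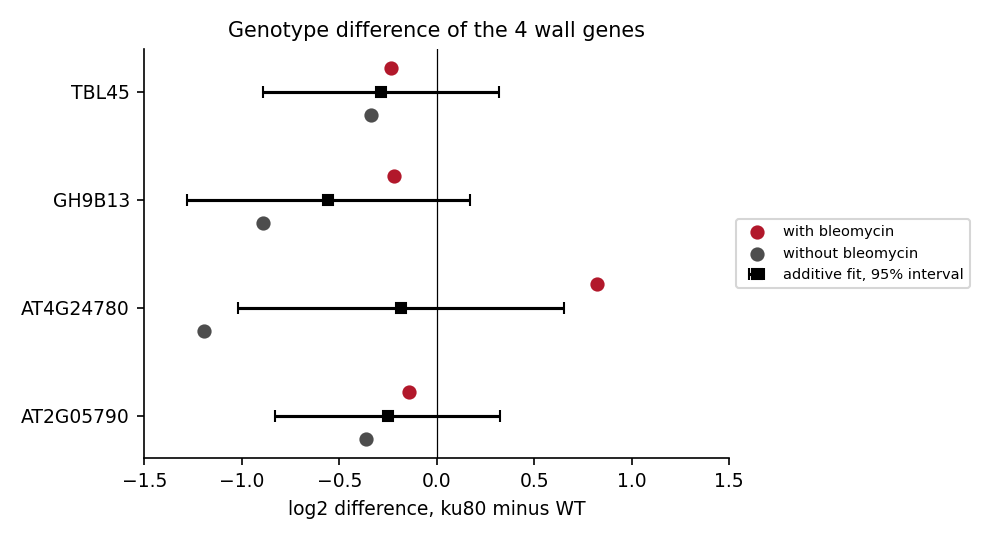
Log2 difference, ku80 minus WT, of each wall gene with bleomycin (red), without it (grey) and in the additive limma fit (black square, bar for the 95% interval). All 4 intervals span 0, and AT4G24780 is the gene with values on opposite sides of 0.

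Other genes of the wall were described from 9 family lists, which besides these 4 held 143 genes with a named probe set, 90 of them measured. In the additive limma fit 14 of the 90 fell with bleomycin and 1 rose. That is 15.6% that fell and 1.11% that rose, against 4.59% and 2.23% of all measured probe sets. The lists were chosen with earlier results of these data known, and they include the families of the 4 genes. These shares are therefore a description and not independent support. Since 8730 probe sets are unnamed here, the lists cover each family only in part. The array named 23 of 51 trichome birefringence-like and acetylation genes, and 15 of 25 glycosyl hydrolase 9 genes. Other lists were covered less, with 5 of 61 pectin synthesis and modification genes and 2 of 26 xylan genes. The median log2 difference of the 90 was -0.19 in ku80 and -0.26 in WT, against 0.00 over all measured probe sets in each. All 14 that fell were lower in both genotypes, which largely follows from the call, since it needs a large mean of the 2 responses. Of all 90, 48.9% were lower in both, against 31.2% of all measured probe sets. Of the 14, 9 lay above the floor on all 4 arrays. The calls depended on the settings: quantile normalization left 2 genes that fell, EXPA8 and TBL36. Without an intensity trend 8 genes fell. Among those then lost were AT3G27400, AT5G58090 and XTH16 (adjusted p = 0.065, 0.053 and 0.087 in limma). A limma model of bleomycin alone called 0 of the 90 and 0 of all probe sets, of which 2681 had an unadjusted p under 0.05. For genotype, limma called 0 of the 90.

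Of 12 other measured pectate lyase genes, 4 fell with bleomycin, 0 rose and 8 did not pass. AT1G04680 read 91.3 in ku80 with bleomycin against 220.1 untreated, and 81.8 in WT with bleomycin against 386 untreated. It fell by 1.75 on the log2 scale in the fit (SE 0.30, adjusted p = 0.0026 in limma). AT3G27400 fell by 1.64, AT3G53190 by 1.43 and AT3G07010 by 1.27, with adjusted p of 0.016, 0.011 and 0.014 in limma. Like AT4G24780, AT3G27400 had a larger difference in WT (-2.42) than in ku80 (-0.87), and its untreated WT array, at 267, stood above the other 3 at 41.5 to 75.9. AT5G63180 was at 0.32 in ku80 and -0.33 in WT. The median of the 12 was -0.41 in ku80 and -0.32 in WT.

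The glycosyl hydrolase 17 list held 23 other measured genes, of which 2 fell, 1 rose and 20 did not pass. AT5G58090 fell by 1.18 (adjusted p = 0.031 in limma), with 67.4 in ku80 treated against 149 untreated and 75.1 in WT treated against 174 untreated. AT4G29360, below the floor on both treated arrays, fell by 0.82 in the fit (adjusted p = 0.040), a call lost under each of the 7 other settings (adjusted p from 0.051 to 1.00 in limma). AT3G04010 rose by 1.39 (adjusted p = 0.017 in limma), with 171 in ku80 treated against 67.5 untreated and 125 in WT treated against 46.3 untreated. AT4G16260 was not called and its arrays did not split by treatment: it read 1639 in ku80 with bleomycin against 1530 untreated, and 1150 in WT with bleomycin against 345 untreated. The median of the 23 was -0.19 in ku80 and -0.03 in WT.

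Among 13 other measured trichome birefringence-like and acetylation genes, 1 fell and 12 did not pass. TBL36 read 26.2 in ku80 with bleomycin, under the floor, against 110 untreated, and 60.0 in WT with bleomycin against 204 untreated. It fell by 1.87 in the fit (SE 0.33, adjusted p = 0.0033 in limma). TBL39 was at -0.61 in ku80 and -1.31 in WT and was not called, and TBL37 was at 0.43 in ku80 and 0.70 in WT. The median of the 13 was 0.13 in ku80 and -0.05 in WT, and TBL45 itself was chosen for its low value.

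Of 7 other measured glycosyl hydrolase 9 genes, GH9B8 fell by 1.22 in the fit (adjusted p = 0.014 in limma), with both treated arrays under the floor. Of the other settings, only the deposited scale kept that call (adjusted p = 0.022 in limma). Among the settings that lost it were the floors at the 50th and 20th percentile (adjusted p = 0.087 and 0.055 in limma), quantile normalization (0.079) and no intensity trend (0.068). The other 6 did not pass. GH9C2 was at 104 in ku80 treated against 138 untreated, and at 87.3 in WT treated against 216 untreated. GH9B7 read 154 and 201 in treated ku80 and WT against 234 and 315 in untreated ku80 and WT. Both genes were lower with the drug in each genotype without a call. GH9A3, also above the floor on all 4 arrays, was at 0.19 in ku80 and -0.004 in WT. The median of the 7 was -0.10 in ku80 and -0.65 in WT, and 3 of the 7 were lower in both genotypes.

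The remaining families, apart from the expansins, had fewer named genes. CSLA03 and CSLC08, of cellulose synthase-like families that make hemicellulose backbones, fell (adjusted p = 0.0087 and 0.015 in limma). CSLA03, under the floor in ku80 with bleomycin, was lower by at least 1.15 on the log2 scale in ku80 and by 1.60 in WT. CSLC08, under the floor on both treated arrays, was lower by at least 1.04 in ku80 and 1.17 in WT. Of the other settings, only the deposited scale kept its call (adjusted p = 0.022 in limma). Among the settings that lost it were the floors at the 50th and 20th percentile (adjusted p = 0.117 and 0.086 in limma), quantile normalization (0.073) and no intensity trend (0.066). XTH16, of the enzymes that cut and rejoin xyloglucan, fell by 1.17 (adjusted p = 0.024 in limma). XTH18 of the same family was higher with the drug, at 0.58 in ku80 and 1.32 in WT, without a call. Of 15 measured expansins, which loosen walls without cutting them, EXPA8, EXLB1 and EXPA4 fell and 12 were not called. EXLA1, among the uncalled, was higher with the drug, at 0.84 in ku80 and 0.61 in WT. The median of the 15 was -0.21 in ku80 and -0.67 in WT. The 3 measured pectin synthesis and modification genes and the 1 measured xylan gene were not called.

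**Figure D4:**
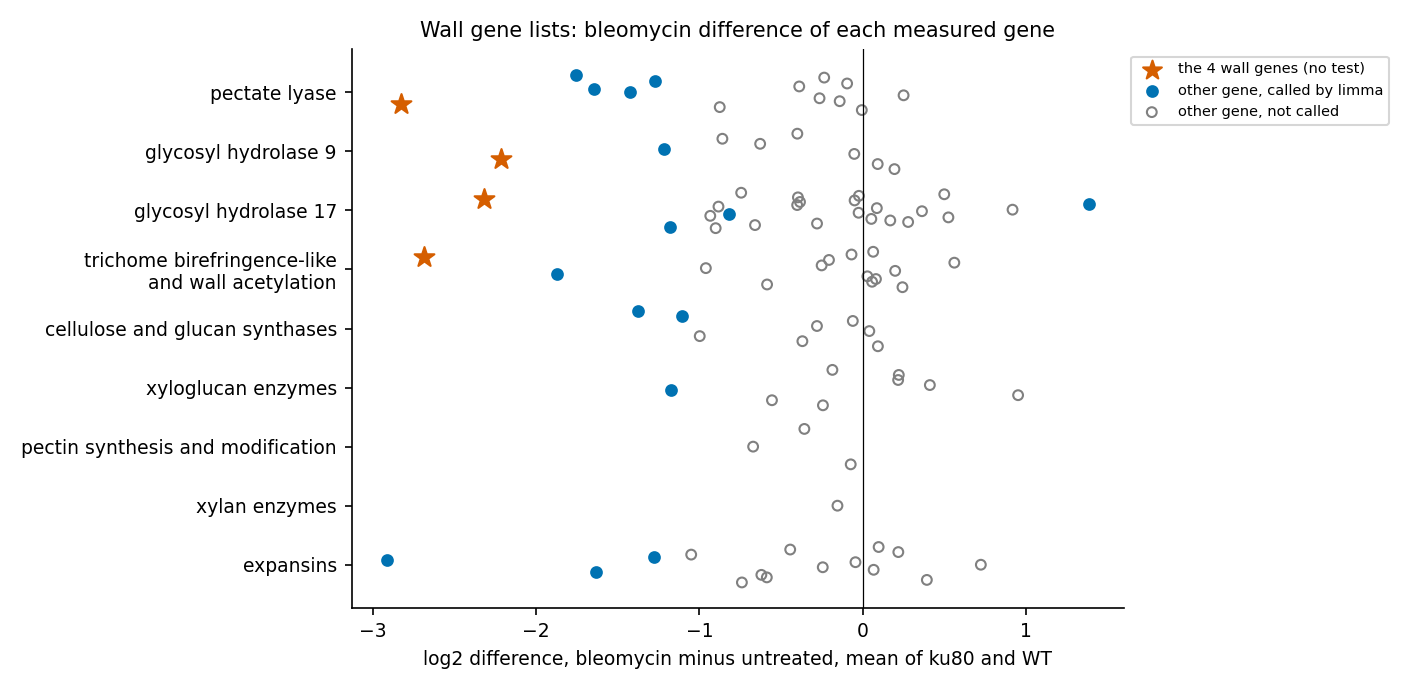
Log2 difference with bleomycin, averaged over ku80 and WT, of each measured gene in 9 wall gene lists; stars are the 4 wall genes (chosen for this difference, no test), filled points were called by limma and open points were not. Each star is the lowest point of its own list, and 1 filled point, AT3G04010, lies above 0.

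Profiles over the arrays were compared as the root mean square difference of log2 values after each gene's mean was removed. Since the 4 genes were chosen as lower with bleomycin, their profiles share that shape by choice, and the distances among them only describe how they vary. TBL45 and AT2G05790 were the closest pair (0.19), and AT4G24780 differed from the other three by 0.48 to 0.52. Among 6313 other named probe sets that exceeded the floor on every array, the closest to the mean profile of the 4 genes was EXPA8 (0.21), at 29.3 in ku80 treated against 178 untreated and 31.7 in WT treated against 297 untreated. AT5G48490 (0.24), AT4G18970 (0.29) and AT4G19430 (0.37) came next. They were followed by COR15B (0.38), a cold-regulated gene, the pectate lyase AT1G04680 (0.38), AT2G10940 (0.38), LHCB4.2 (0.40), a light-harvesting protein of the chloroplast, AT1G09750 (0.41) and the subtilase SBT1.3 (0.42). AT4G19430 shared with AT4G24780 a larger difference in WT (-3.16) than in ku80 (-1.13). Except for AT4G18970 and SBT1.3, all of these 10 genes had a less negative response in ku80 than in WT, as the 4 wall genes did. These likenesses rest on 4 arrays and were found by searching for them.

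**Figure D5:**
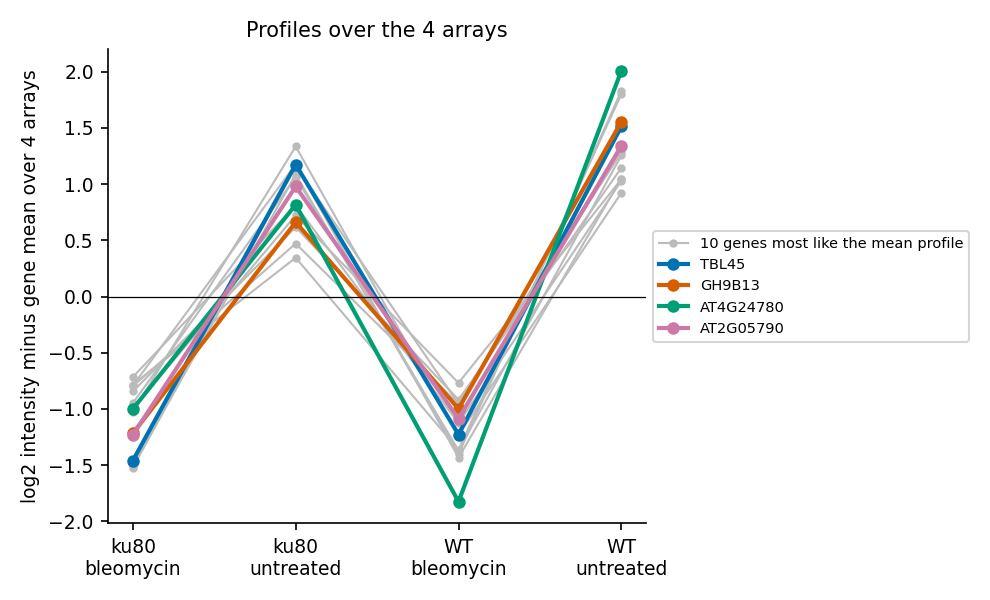
Log2 intensity minus the gene's own mean over the 4 arrays, for the 4 wall genes (coloured) and the 10 named genes most like their mean profile (grey); each point is 1 array. Every line is low on both treated arrays and high on both untreated arrays, and AT4G24780 has the widest swing, between the WT arrays.

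Some markers of other tissues and of dividing cells fell with treatment as well, and most were not called. Of 5 measured green tissue genes, LHCB4.2 and LHCB4.3 fell (by 1.84 and 1.24, adjusted p = 0.0010 and 0.016 in limma), against 4.59% of all measured probe sets. RCA, LHCB4.1 and SBPASE were not called, and RCA was at -0.65 in ku80 and 0.08 in WT. Summed intensity of the 5, mostly that of the bright RCA and LHCB4.1 probe sets, was 3724 in ku80 with bleomycin against 6029 untreated, and 4636 in WT with bleomycin against 5645 untreated. Of 3 measured genes of dividing cells, all mitotic Aurora kinase genes, AUR1 fell (-1.32 in ku80 and -1.08 in WT, adjusted p = 0.028 in limma). AUR2, under the floor on both treated arrays, was not called (adjusted p = 0.24), nor was AUR3, at 0.29 in ku80 and -0.04 or lower in WT. The 3 summed to 81.6 in ku80 treated against 144 untreated and 82.2 in WT treated against 146 untreated. Neither the 2 root markers nor GUT2, the 1 measured xylem marker (0.03 in ku80 and -0.34 in WT), was called. The part of these tissues in the wall gene differences was not tested.

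Array controls were not even either. The 3' to 5' ratio of the original GAPDH probe sets was 0.715 and 0.731 on the treated ku80 and WT arrays against 0.980 and 0.979 on the untreated ones, and the original ubiquitin ratios (1.62 and 1.42 against 1.89 and 1.61) were also lower on the treated arrays. So was the original actin ratio in both genotypes, at 5.23 in treated ku80 against 6.21 in untreated ku80. In the revised design the treated arrays had higher ratios for GAPDH (1.19 and 1.13 against 1.09 and 1.12) and ubiquitin (1.53 and 1.21 against 1.42 and 1.17), and lower ones for actin in both genotypes, at 1.29 in treated ku80 against 1.38 in untreated ku80. The part of these ratios in the wall gene differences was not tested. Bacterial spike-in controls were 1.31 to 1.63 times brighter on the other 3 arrays than on the untreated WT array, the array on which each of the 4 wall genes was highest. With arrays scaled to these controls all 4 genes were still lower with the drug, at -2.30 to -1.48 on the log2 scale in ku80, where the median of all measured probe sets was 0.25, and at -3.20 or lower in WT, where it was -0.69. The WT values of GH9B13 (-3.26 or lower) and AT4G24780 (-4.41 or lower) are then limits, since both lay under the floor with the drug.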

How the data were processed

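The table the authors deposited gave each of 22810 probe sets a linear intensity on every array, and the mean after trimming 2% of values at each end was 100.01 on every array, so the authors had scaled the arrays to a common mean. The summarising software and background correction are not given in the sources used here. Arrays were scaled by median ratios against a geometric mean array, taken from the brighter 50% of probe sets (factors 0.976 to 1.04), after 64 control probe sets were set aside. Lower values were raised to a floor at the 40th percentile, and log2 was taken. Probe sets above the floor on at least 1 array counted as measured. Names came from the platform table with symbols updated from RefSeq (TAIR10.1): 13513 of 22746 gene probe sets had 1 gene, 503 had several and 8730 were unnamed here, and 13436 of the 13513 matched the RefSeq table.

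The additive model was fitted with limma 3.58.1 in R 4.3.3 (eBayes with an intensity trend, Benjamini-Hochberg adjustment over all measured probe sets, threshold 0.05) and was tested on simulated data. Prior degrees of freedom were 15.9 against 1 residual one, so an SE is mostly borrowed from other probe sets. The 4 genes and the family lists were chosen with earlier results of these data known. Families were listed by locus or symbol from general knowledge, and the brightest probe set stood for a gene. A list of wall structural proteins was set aside because it met only PRP39, a pre-mRNA processing gene. Genes were named by a rule: the 4 genes, list genes called by limma or among the 3 lowest and 3 highest of a list, and the 10 most like profiles. Not every gene so chosen is printed. Promoter and protein sequences were not used here. Alternatives were the deposited scale, quantile normalization, floors at the 20th and 50th percentiles, a 3-fold threshold, no intensity trend, no second factor and, added after seeing the data, scaling to spike-in controls. The number of arrays limits the precision.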

Additional observations from a re-analysis of the deposited data

Results flagged for a closer look

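AT4G24780 differed between genotypes in opposite directions by treatment. With bleomycin it read 52.6 in ku80 and 29.7 in WT, which is 1.77-fold higher in ku80, and without bleomycin it read 185 in ku80 and 423 in WT, which is 2.28-fold lower in ku80. The genotype difference with bleomycin minus that without was 2.02 on the log2 scale. It was the 1 gene of 27 checked, namely the 4 wall genes, the list genes called by limma and the 10 genes most like them, with opposite differences of at least 1.5-fold on both sides. The 27 were picked from these same data and other probe sets were not checked, so how common this is was not established. Over all measured probe sets, 5.41% had a difference of responses of 1 or more on the log2 scale in this direction. The difference of 2.02 for AT4G24780 was not tested, since 1 array per group leaves no residual for it. The treated WT value was 1.06 times the floor, and with the floor at the 50th percentile, where that value is floored, the difference was 1.49 or more. AT4G19430, one of the 10, had the same directions and missed the 1.5-fold mark on one side: ku80 minus WT was 0.58 with bleomycin and -1.45 without, a difference of 2.03.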

How the results depend on the processing

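Of 100 recomputed log2 differences of the 4 genes, 78 moved by less than the spread assigned to the gene in the limma fit. The other 22 moved by more, and 0 of the differences at least 2-fold in size changed sign. Part of the 78 could not move. A floor at the 20th percentile lies below every value of the 4 genes, and one at the 50th lies below every value of TBL45 and AT2G05790. No paired analysis was possible because each group holds 1 array. Leaving out an array could not be run, since no residual would remain. With 1 array per group and 2 of the genes near the floor, signal over background limits their treated values.

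With the floor at the 50th percentile, treated GH9B13 values and the treated WT value of AT4G24780 are floored, so the differences are limits. GH9B13 was at -1.27 or lower with bleomycin in ku80 and -2.16 or lower in WT. AT4G24780 was at -3.31 or lower in WT, 0.30 or higher for ku80 minus WT with bleomycin and 1.49 or higher for the difference of responses. The other values that moved came from scaling to spike-in controls. It shifted the median of all probe sets by 0.25 in ku80 and -0.69 in WT for bleomycin, and by 0.29 with and -0.66 without bleomycin for ku80 minus WT. In ku80 TBL45 was then at -2.30 and AT2G05790 at -1.87. In WT TBL45 was at -3.51, GH9B13 at -3.26 or lower, AT4G24780 at -4.41 or lower and AT2G05790 at -3.20. For ku80 minus WT with bleomycin, TBL45 was at 0.17, GH9B13 at 0.13 or higher and AT2G05790 at 0.26. Without bleomycin the values were -1.04 for TBL45, -1.60 for GH9B13, -1.90 for AT4G24780 and -1.06 for AT2G05790. The differences of responses were 1.21, 1.72 or higher, 2.93 or higher and 1.32 in the same order. The cause was not tested.

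Probe sets at least 2-fold lower with bleomycin numbered 859 in ku80 and 1284 in WT, and those 2-fold different between genotypes 645 with and 708 without bleomycin. With the floor at the 20th percentile, where more probe sets are measured, there were 1334 in ku80 for bleomycin, and 1306 and 1233 for genotype. A 3-fold threshold left 233 and 340 for bleomycin in ku80 and WT, and 125 and 258 for genotype. Spike-in scaling gave 419 and 5108 for bleomycin, and 1361 and 3396 for genotype.

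The additive limma fit called 38 probe sets for genotype and 1046 for bleomycin. For genotype it called 0 under quantile normalization (888 at an unadjusted p under 0.05), 0 without bleomycin in the model (288), 0 under spike-in scaling (58), 1 without an intensity trend and 19 with the floor at the 20th percentile. For bleomycin the calls were 175 under quantile normalization, 467 without a trend, 1 under spike-in scaling and 0 without genotype in the model (2681 at an unadjusted p under 0.05). Of the other wall genes, 14 fell and 1 rose. The counts that fell were 2 under quantile normalization, 8 without a trend, 0 under spike-in scaling and 0 without genotype in limma, and the count that rose was 0 under quantile normalization, spike-in scaling and without genotype. The genotype call of the 4 genes stayed absent in all 8 fits, with adjusted p from 0.896 to 1.00 in limma.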
